A study of Arabidopsis thaliana with 12 samples.

Results

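This report sets mature dry KD seeds against KD seeds taken 16 days after flowering (16DAF), a comparison called drying below. The arrays were chosen by their sample titles, which give 2 arrays of dry KD seeds and 2 of KD seeds at 16DAF, 4 of the 12 arrays in the series. All 22746 probe sets of the Affymetrix ATH1 array other than its controls were compared. The series also holds KD seeds at 14DAF and WT seeds of the same 3 stages. Both genotypes were in the Wassilewskija (WS) accession of Arabidopsis thaliana, grown in a greenhouse in long days, with no other treatment. Dry seeds were harvested once desiccation had ended and were then kept at 4 °C. The 16DAF seeds were cut out of siliques of marked flowers, at the end of reserve filling. Water loss, later age, cold storage and the way of harvest therefore cannot be told apart. Each extraction used 3000 to 5000 seeds. KD is called a mutant whose lysine metabolism is altered, after Zhu and Galili, and the abbreviation is left unexplained. Its lesion or transgene, any promoter driving it and the number of independent lines were not stated.

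Late in maturation an Arabidopsis embryo has filled its cells with storage protein and oil, and it then loses most of its water. Late embryogenesis abundant (LEA) proteins, small heat shock proteins and soluble sugars are known for protecting membranes and proteins in the dry state. The dry seed also keeps long-lived transcripts that are at hand when it takes up water, and gibberellin, its receptors and the breakdown of oil belong to that later phase.

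Transcripts called higher in dry KD seeds than in KD seeds at 16DAF included 19 of 39 LEA genes (3 fell) and 7 of 11 small heat shock genes. They also included 2 of 3 gibberellin receptors and 21 of 51 UDP-glucosyltransferases (6 fell). The genes measured for oil breakdown, 4 of 23 listed, were higher too. The transcripts measured for fatty acid and oil synthesis (4 of 33 listed) and oil bodies (3 of 10 listed) fell. So did 9 of 15 plastid photosystem II transcripts, a class drawn after the values had been seen. Decreases were also called for 6 of 16 SWEET sugar carriers, 6 of 22 beta-glucosidases and the expansin EXPA15. Over all probe sets 19.6% rose and 15.3% fell. The share of expansins that fell, 3 of 19, was close to that background. Of 7 storage protein transcripts, 5 were not called. All levels below are log2 RMA signals, so a difference of 1 is a doubling, and changes are dry minus 16DAF.

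The 4 arrays were alike within each group, at r = 0.993 between the dry KD arrays and r = 0.991 between the KD 16DAF arrays. Array medians were 4.92 and 4.91 in dry KD seeds and 5.08 and 5.11 in KD seeds at 16DAF. The 3′ minus 5′ signal of 3 control transcripts, which follows RNA integrity and labelling, was 3.47 and 3.33 in dry KD seeds and 3.39 and 3.74 in KD seeds at 16DAF. Titles were followed throughout, although the source name of dry KD replicate 1 gives WT and that of WT 16DAF replicate 1 gives KD. AT4G33150 (LKR/SDH), the first enzyme of lysine breakdown, measured 12.83 and 12.8 in dry KD seeds and 13.01 and 13.37 in KD seeds at 16DAF, against 8.87 to 10.61 over the 6 WT arrays. By this gene both arrays lay with the genotype of their titles. The position of its probe set in the mutant allele is unknown, so it checks no knockout. The repeats are not said to be separate plants or batches, so p-values measure only how far these samples spread, and that spread may be technical.

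Of the storage protein and oleosin genes set as a check of the label, OLEO3 had a probe set naming it alone, at 9.75 and 10.39 in dry KD seeds and 13.28 and 13.38 in KD seeds at 16DAF, and the others were not analysed here. The vicilin-like storage gene PAP85 read 13.97 and 14.21 in dry KD seeds and 13.88 and 14.03 in KD seeds at 16DAF. Of the markers for other tissues, the 2 endosperm genes AGL62 and IKU2 read 3.14 to 4.44 over the 4 arrays. The 2 silique wall genes averaged 3.29 and 3.07 in dry KD seeds and 4.34 and 4 in KD seeds at 16DAF. The 5 seed coat genes measured, of 25 listed, averaged 4.99 and 5.12 in dry KD seeds and 6.17 and 6.19 in KD seeds at 16DAF. Of those 5, DELTA-VPE, a protease gene active in inner seed coat layers, fell by 3.56 (SE 0.456), DFR, of flavonoid synthesis, fell by 1.91 (SE 0.231), and ARA12 rose by 1.01, which did not hold without KD 16DAF replicate 2 (0.72, adjusted p = 0.0528). The averages of both lists were lower in dry KD seeds. Neither silique wall gene was called, and of the 5 seed coat genes 2 fell, 1 rose and 2 were not called. The part of these tissues in the results was not tested. In seeds taken as bulk samples, fewer cells of a type and less RNA per cell cannot be told apart.

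Of the 22746 probe sets, 4457 (19.6%) rose and 3487 (15.3%) fell in KD seeds on drying, by limma at an adjusted p under 0.05, which makes 7944 calls (34.9%) in either direction. The median change over all probe sets was 0.03, and the median absolute change was 0.32. Large decreases outnumbered large increases: 815 probe sets fell by at least 2 and 521 rose by at least 2, while 66 fell and 17 rose by at least 5. Changes ran from -7.76 to 7.65. Increases made up 56.1% of the calls as deposited and 70% when each array was centred on its median, with 6380 rising and 2736 falling. The dry and 16DAF arrays did not overlap for 15175 probe sets (66.7%). The shares of 19.6% rising and 15.3% falling are the background for each count of list members below.

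**Figure D1:**
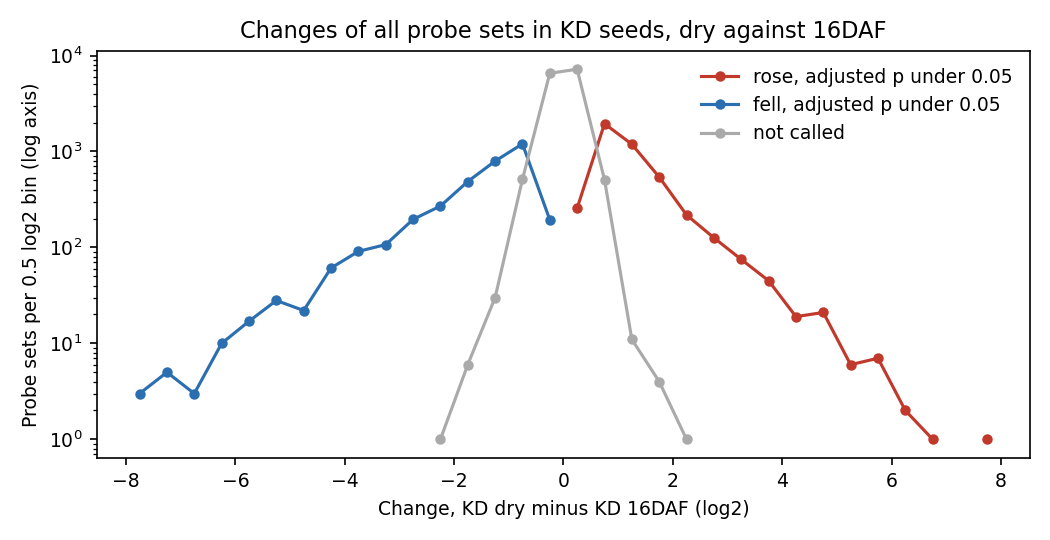
Number of probe sets (log axis) in each 0.5-wide bin of log2 change, KD dry minus KD 16DAF, drawn separately for probe sets that rose (red), that fell (blue) and that were not called (grey). The left arm is longer and higher beyond a size of 2, where 815 probe sets fell and 521 rose.

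LEA genes rose in larger number than they fell. Their products are small hydrophilic proteins that fill the cells of orthodox seeds. Of 39 measured members, 19 rose and 3 fell, with a median change of 0.64 against 0.03 over all probe sets, where 19.6% rose and 15.3% fell. Some of the 19 were lost when any 1 KD array was left out, with list medians of 0.53 to 0.68. Tested against a smallest change of 1, 8 rose and 1 fell. M17 read 12.91 and 13.96 in dry KD seeds and 4.14 and 7.43 in KD seeds at 16DAF. This was the largest increase measured for a named gene (7.65, SE 1.15, adjusted p = 0.00044), and both dry arrays lay far above both 16DAF arrays, which differed widely from each other. M10, close to it by locus number, read 13.97 and 14.37 in dry KD seeds and 7.29 and 10.56 at 16DAF, a change of 5.24 (SE 1.06, adjusted p = 0.00298). Without KD 16DAF replicate 1, the change was 6 for M17 and 3.61 for M10, and both stayed past the threshold. Among 290 named probe sets that rose by 2 or more in drying WT seeds, KD 16DAF replicate 2 was above replicate 1 in 224. The median of replicate 2 minus replicate 1 over all 290 was 0.29.

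Other LEA genes were already bright at 16DAF and went higher. AT4G36600, placed in the LEA list, read 13.26 and 13.01 in dry KD seeds and 8.88 and 9.82 at 16DAF (change 3.79, SE 0.436, adjusted p = 7.38e-05). AT3G22490 read 11.46 and 11.28 in dry seeds and 7.24 and 8.58 at 16DAF (3.46, SE 0.487). LEA18 rose by 2.6 (SE 0.366), to 13.21 and 13.13 in dry KD seeds against 10.52 and 10.62 at 16DAF, with no overlap of the groups. The dehydrin LTI30, named for its induction by low temperature, rose by 2.21 (SE 0.325). Only the dry seeds had been stored at 4 °C, and the part of storage was not tested. AtLEA4-1 (1.16) and the dehydrin gene LEA (0.84) rose less, and both read above 12.7 at 16DAF. The 3 members that fell were the dehydrin HIRD11 (AT1G54410), at 5.32 and 5.11 in dry KD seeds against 8.16 and 7.72 at 16DAF (-2.73, SE 0.273), LEA26 (AT2G44060, -1.25) and AT3G02480 (-1.15).

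**Figure D2:**
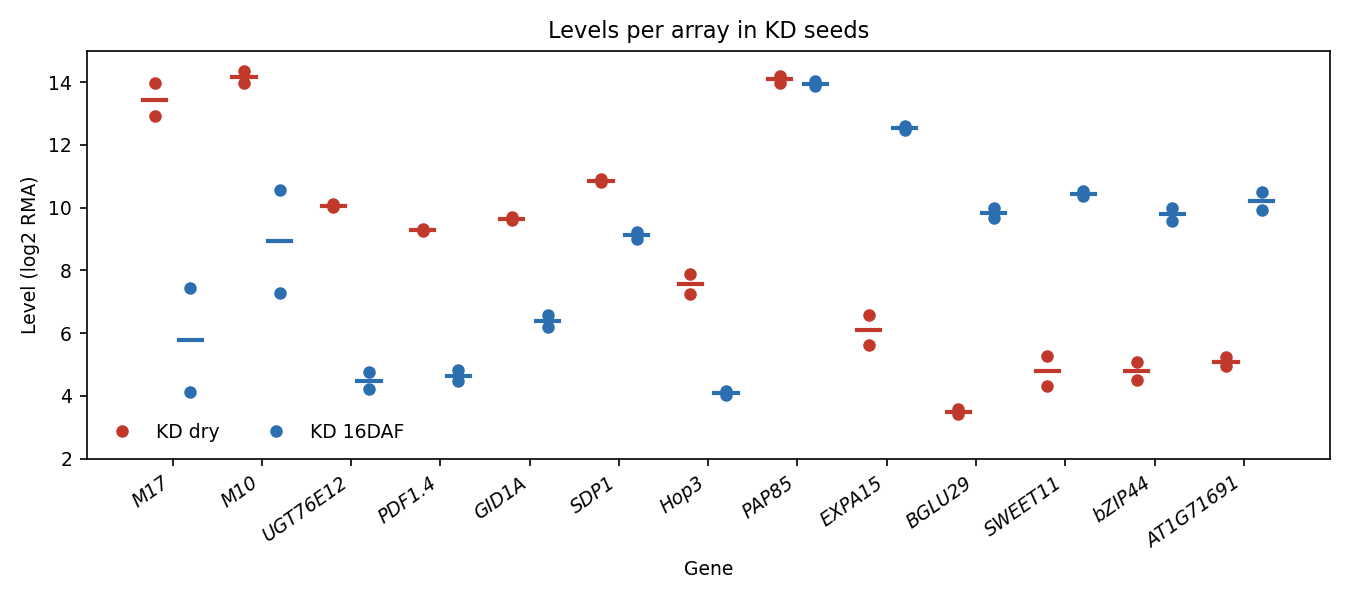
Log2 RMA level on each KD array for 13 genes, with dry seeds in red to the left of 16DAF seeds in blue; points are the 2 arrays of a group and bars are their means. M17 and M10 differ widely between the 16DAF arrays, PAP85 stays near 14 in both groups, and the genes from EXPA15 rightwards are lower in dry seeds on both arrays.

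Small heat shock genes, whose products keep unfolding proteins from clumping, rose as well. Of 11 measured, 7 rose and none fell, with a median change of 1.85. AT1G54050 read 9.6 and 8.68 in dry KD seeds and 4.35 and 4.38 at 16DAF, a change of 4.78 (SE 0.541, adjusted p = 6.56e-05). AT1G52560 rose by 4.21 (SE 0.419), AT1G53540 by 3.35 (SE 0.425) and AT2G29500 by 2.92 (SE 0.277). For all 4 the dry arrays lay above 7.3 and the 16DAF arrays below 5.6. Among 7 larger chaperones and co-chaperones, 4 rose and none fell. Hop3, a co-chaperone that links Hsp70 to Hsp90, read 7.24 and 7.9 in dry KD seeds and 4.03 and 4.16 at 16DAF (3.48, SE 0.277, adjusted p = 6.68e-06). Fes1A, which acts with Hsp70, rose by 2.45 (SE 0.194), and AT3G09440 rose by 1.39 (SE 0.219). HSA32, a heat-stress gene, passed at 0.66 (adjusted p = 0.0169), but not when any 1 of the 4 KD arrays was left out (0.65 to 0.68, adjusted p = 0.0629 to 0.0769).

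Chaperones of the endoplasmic reticulum, where storage proteins are folded on their way to the vacuole, went the other way in 2 of 3 measured cases. The list held 17 genes. The calreticulin gene CRT1b read 5.67 and 5.42 in dry KD seeds and 8.6 and 8.23 at 16DAF (-2.87, SE 0.308, adjusted p = 4.64e-05). ATERDJ3B fell by 2.54 (SE 0.194), to 5.24 and 5.2 in dry KD seeds against 7.68 and 7.84 at 16DAF. The third, AT5G07340, rose by 1.67 (SE 0.209).

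Reserve genes split by role. Of 7 storage protein genes measured, 2 fell and none rose, with a median change of -0.29. AT1G03890 read 11.88 and 12.5 in dry KD seeds and 13.55 and 13.64 at 16DAF (-1.41, SE 0.214, adjusted p = 0.000487), and AT4G36700 fell by 1.24 (SE 0.141). With the arrays centred, 1 storage gene passed as higher. All 3 oil body genes measured, of 10 listed, fell. The oleosin gene OLEO3, which encodes a coat protein of oil bodies, read 9.75 and 10.39 in dry KD seeds and 13.28 and 13.38 at 16DAF. That is 9.58-fold lower in dry seeds (-3.26, SE 0.255, adjusted p = 6.01e-06). AT3G18570 fell by 1.47 (SE 0.219). AT3G01570 passed at -0.46 (adjusted p = 0.0451), but not without dry KD replicate 1 (-0.3, adjusted p = 0.292) or without KD 16DAF replicate 1 (-0.51, adjusted p = 0.1) or 2 (-0.4, adjusted p = 0.181).

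The genes measured for oil synthesis and oil breakdown, a small part of those listed, moved apart. Of 33 genes listed for fatty acid and oil synthesis, 4 were measured, and all 4 fell, with a median of -1.92. The acyl-ACP thioesterase gene FaTA, which releases fatty acids from the plastid, read 4.24 and 4.33 in dry KD seeds and 8.4 and 8.5 at 16DAF, 17.94-fold lower in dry seeds (-4.17, SE 0.167, adjusted p = 1.26e-07). FATB, the thioesterase for saturated fatty acids, fell by 1.03 (SE 0.195). Of 23 genes listed for reserve mobilisation, 4 were measured, and all 4 rose, with a median of 1.74. The oil body lipase SDP1 read 10.81 and 10.9 in dry KD seeds and 9 and 9.23 at 16DAF (1.74, SE 0.201, adjusted p = 7.56e-05), and SDP1-LIKE rose by 1.72 (SE 0.232). AIM1, an enzyme of beta-oxidation, rose by 2.12 (SE 0.21). Isocitrate lyase (ICL), of the glyoxylate cycle, read 13.12 and 13.33 in dry KD seeds and 11.52 and 11.44 at 16DAF (1.75, SE 0.159). None of these 8 genes had overlapping groups, against 66.7% of all probe sets without overlap.

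Sugar transport genes held some of the largest decreases. SWEET proteins let sugars pass out of cells and are known for feeding the embryo through the seed coat and endosperm. Of 16 measured, 6 fell and 2 rose, and the other 8 averaged at most 4.07 in both groups. SWEET11 read 4.3 and 5.26 in dry KD seeds and 10.37 and 10.52 at 16DAF, 50.74-fold lower in dry seeds (-5.67, SE 0.445, adjusted p = 6.14e-06). SWEET10 read 4.62 and 4.38 in dry KD seeds and 10.19 and 10.2 at 16DAF (-5.69, SE 0.165). SAG29, also known as SWEET15, fell by 4.75 (SE 0.191) and SWEET7 by 4.67 (SE 0.238). In the opposite direction, SWEET1 read 8.57 and 8.02 in dry KD seeds and 5.6 and 5.38 at 16DAF (2.81, SE 0.289), and SWEET6 rose by 1.68 (SE 0.296). ATSPS4F, a sucrose phosphate synthase gene and the only measured member of the sucrose, raffinose and trehalose list, fell to 3.45 and 3.34 in dry KD seeds, against 7.42 and 7.3 at 16DAF.

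Of 25 genes listed for the gibberellin pathway, 4 were measured and 3 rose, with a median of 1.82. GID1A, a gibberellin receptor, read 9.69 and 9.61 in dry KD seeds and 6.2 and 6.57 at 16DAF, 9.61-fold higher in dry seeds (3.27, SE 0.229, adjusted p = 2.99e-06). The receptor GID1C rose by 2.26 (SE 0.329). SLY1, the F-box protein that marks DELLA repressors for destruction, rose by 1.36 (SE 0.257). The third receptor, GID1B, read 3.94 and 3.89 in dry KD seeds and 4.04 and 3.78 at 16DAF, near the lower quartile of the arrays, and was not called. Among regulators of maturation, the bZIP factor EEL fell by 1.67 (SE 0.142) and BZIP53, which activates maturation genes, fell by 1.65 (SE 0.278). The largest fall of a bZIP gene was in bZIP44, at 4.5 and 5.07 in dry KD seeds and 9.99 and 9.59 at 16DAF (-5, SE 0.242, adjusted p = 3.56e-07). In all, 4 of 22 bZIP genes fell and 1 rose, so their share of decreases was close to the 15.3% over all probe sets. The bZIP increases numbered 0 without dry KD replicate 2 or without KD 16DAF replicate 1, and 4 with the arrays centred. Of 14 auxin response genes, 5 fell and none rose, led by IAA34 (-1.96, SE 0.237), a member of the repressor family of auxin signalling. Among 40 MADS factors 2 rose and 1 fell. Without dry KD replicate 1 the MADS calls were 1 and 0, and without KD 16DAF replicate 1 they were 1 and 1. With the arrays centred, 6 MADS genes passed as higher.

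UDP-glucosyltransferases (UGTs), which attach glucose to hormones, flavonoids and other small molecules, rose more often than they fell. Of 51 measured, 21 rose and 6 fell, with a median of 0.28, where 19.6% of all probe sets rose and 15.3% fell. The share of increases lay above that background and the share of decreases below it. UGT76E12 read 10.01 and 10.12 in dry KD seeds and 4.21 and 4.75 at 16DAF, 48-fold higher in dry seeds (5.58, SE 0.38, adjusted p = 2.46e-06). UGT76E11 read 11.15 and 11.12 in dry KD seeds and 7.89 and 8.12 at 16DAF (3.13, SE 0.267). UGT73C7 rose by 4.24 (SE 0.47) and UGT76B1 by 3.54 (SE 0.206). The UGT85A group lies mostly in 1 run of neighbouring loci: UGT85A5 (4.01), UGT85A3 (3.12), UGT85A4 (2.65) and UGT85A2 (1.48) rose, whereas UGT85A7 fell by 0.77. Neighbouring genes of a family are similar in sequence, and how far their probe sets share signal was not tested. UGT78D1, a flavonol rhamnosyltransferase, read 5.71 and 5.78 in dry KD seeds and 8.51 and 8.84 at 16DAF (-2.93, SE 0.234). The count of 6 decreases was 3 without dry KD replicate 1, 2 without dry KD replicate 2, 2 without KD 16DAF replicate 1 and 2 with the arrays centred.

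Cytochromes P450 showed no such balance, with 6 of 22 rising and 4 falling around a median of 0.03. Over all probe sets 19.6% rose and 15.3% fell. CYP71B6 read 9.88 and 9.65 in dry KD seeds and 6.23 and 6.87 at 16DAF (3.21, SE 0.258), and CYP71B28 rose by 2.54 (SE 0.252). CYP78A9, known for promoting the growth of seeds and fruits, read 5.12 and 5.39 in dry KD seeds and 9.47 and 9.56 at 16DAF (-4.26, SE 0.21, adjusted p = 3.78e-07). With the arrays centred, 10 of the 22 passed as higher.

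Genes that act on the cell wall gave several of the deepest falls in single members of a family. EXPA15, an expansin that loosens growing walls, read 5.62 and 6.58 in dry KD seeds and 12.46 and 12.61 at 16DAF. That is 86.52-fold lower in dry seeds (-6.43, SE 0.444, adjusted p = 2.64e-06). Of 19 expansins, 3 fell and 1 rose, a share of decreases close to the 15.3% over all probe sets, and EXPA15 alone of the 3 decreases was kept without dry KD replicate 1 or with the arrays centred. EXPA8 rose by 1.26 (SE 0.167). The xyloglucan backbone synthase genes CSLC12 (-3.23, SE 0.33) and CSLC5 (-3.02, SE 0.281) fell, among 3 decreases and 2 increases in 8 cellulose synthase family genes. The 2 increases became 1 without dry KD replicate 1 or without either KD 16DAF array. The pectin methylesterase gene PME61 fell by 1.94 (SE 0.277). Of 22 beta-glucosidases, 6 fell and 2 rose, where 15.3% of all probe sets fell and 19.6% rose. BGLU29 read 3.42 and 3.58 in dry KD seeds and 9.99 and 9.67 at 16DAF (-6.33, SE 0.156, adjusted p = 1.57e-08), while BGLU15 fell by 3.22 (SE 0.236) and BGLU16 by 2.87 (SE 0.23). The 2 increases, BGLU19 (0.54) and BGLU42 (0.61), numbered 0 when the second replicate of dry or 16DAF KD seeds was left out and 1 when the first was.

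**Figure D3:**
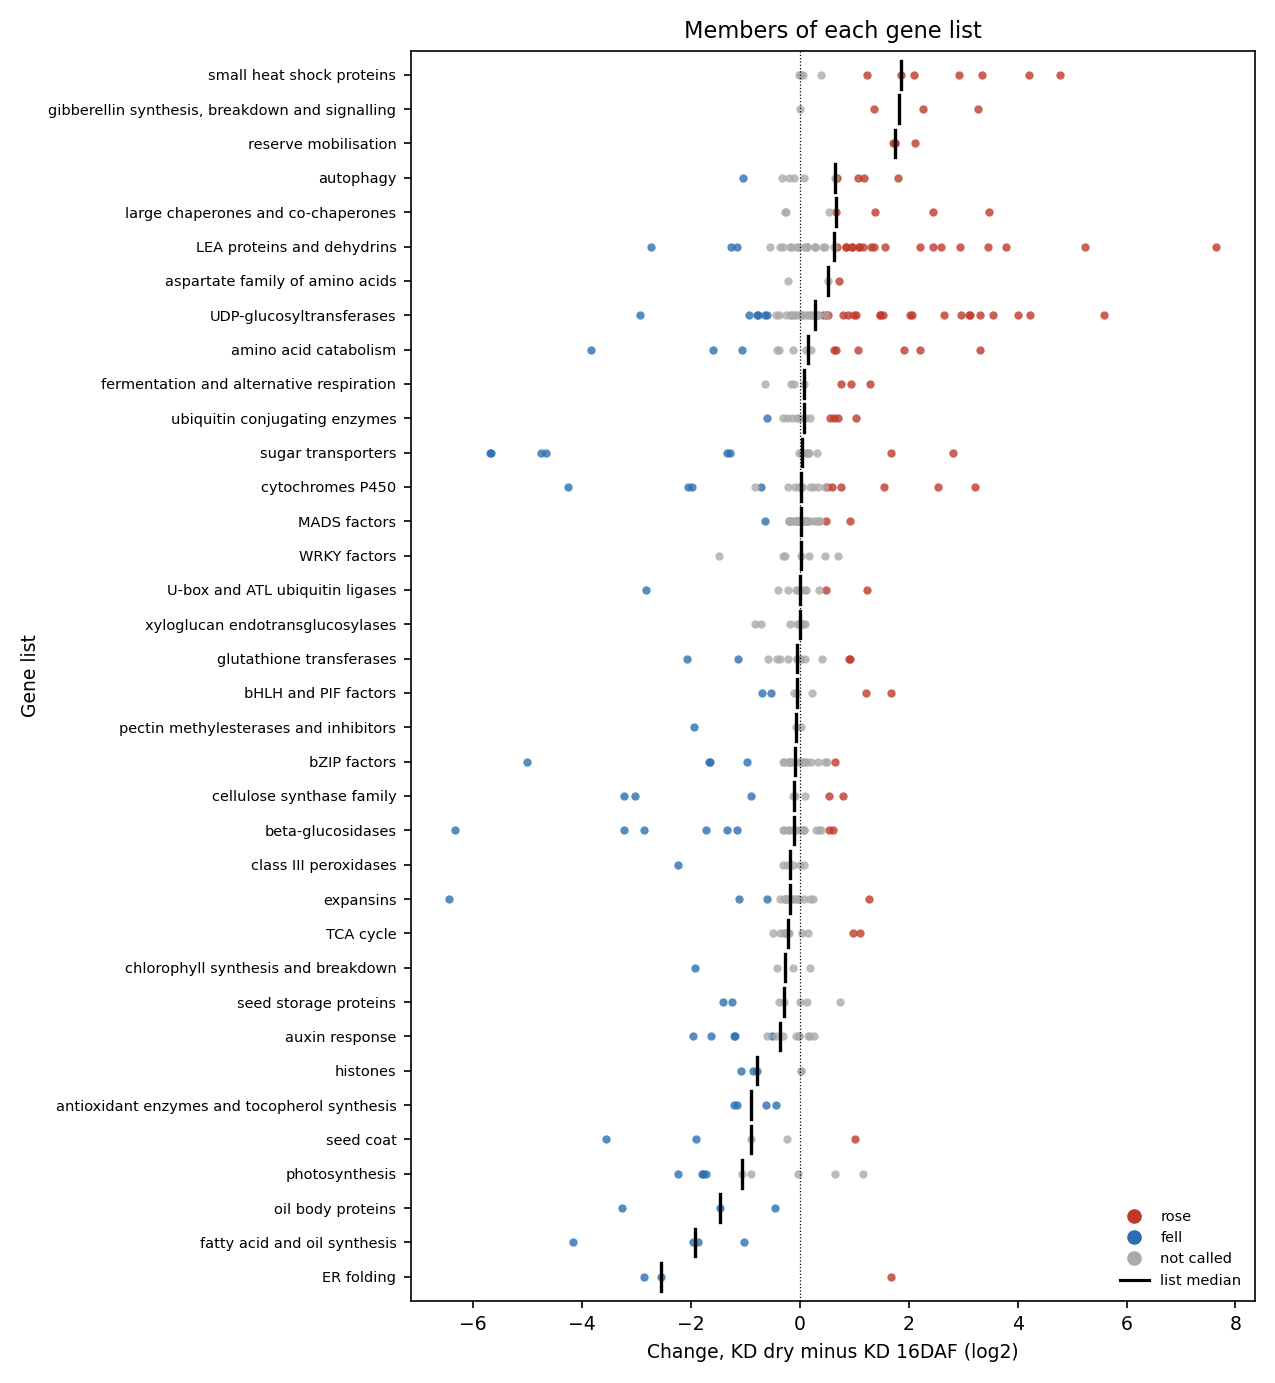
Change of every measured member of the 36 gene lists with at least 3 members other than the plastid genome list (log2, KD dry minus KD 16DAF), with members that rose in red, fell in blue and were not called in grey; bars are list medians. Small heat shock, gibberellin and mobilisation genes have medians near 1.8, while the medians of oil body, oil synthesis and ER folding genes lie between -2.54 and -1.47.

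Of 9 photosynthesis genes of the nucleus measured, out of 52 listed, 4 fell and none rose, with a median of -1.06. PSBY, a photosystem II subunit, read 5.27 and 5.11 in dry KD seeds and 7.38 and 7.49 at 16DAF (-2.24, SE 0.243, adjusted p = 4.79e-05). PSAE-1 of photosystem I fell by 1.8 (SE 0.348), and the Calvin cycle genes PRK (-1.77, SE 0.451) and SBPASE (-1.72, SE 0.217) fell. PRK was lost without dry KD replicate 2 (-1.6, adjusted p = 0.0714). The light-harvesting gene LHCB4.1 measured 1.17 (adjusted p = 0.186) and its groups did not overlap.

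Transcripts of the plastid genome did not move as 1 set. Of 69 measured, 12 rose and 15 fell, and the median change was 0.02. Over all probe sets 19.6% rose and 15.3% fell, so neither count lay far from the background. The classes below were drawn after the values had been seen, so they are a description. Of 15 photosystem II subunits, 9 fell and none rose (median -1.27). psbI read 7.94 and 7.83 in dry KD seeds and 10.38 and 9.94 at 16DAF (-2.28, SE 0.23, adjusted p = 3.13e-05), and psbK fell by 2.09 (SE 0.361). petB, of the cytochrome b6f complex, read 8.87 and 9.39 in dry KD seeds and 11.52 and 11.14 at 16DAF (-2.2, SE 0.213), and was the only 1 of 6 subunits of that complex to pass. Genes of the plastid's own expression machinery lay on the other side. Of 15 plastid ribosomal protein genes, 8 rose and 1 fell (median 0.7), and of 4 RNA polymerase subunits, 3 rose (median 1.32). The ribosomal protein increases numbered 5 without dry KD replicate 1 or KD 16DAF replicate 2, and the 1 decrease, rpl33, was lost without dry KD replicate 2 or KD 16DAF replicate 1 (-0.38 in both cases, adjusted p = 0.268 and 0.274). The ribosomal gene rps2 read 8.11 and 7.62 in dry KD seeds and 5.29 and 5.34 at 16DAF (2.55, SE 0.215, adjusted p = 9.49e-06). The polymerase gene rpoC2 read 10.33 and 10.48 in dry KD seeds and 8.89 and 8.81 at 16DAF (1.56, SE 0.149), and rpoC1 rose by 1.58 (SE 0.343). With the arrays centred, 19 plastid genes in place of 12 passed as higher, and the list median was -0.06 under quantile normalization. In WT seeds, which were measured on other arrays, the class medians were -0.88 for photosystem II subunits, 1.63 for ribosomal proteins and 1.61 for polymerase subunits.

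Mitochondrial genes were also taken from the platform annotation by name: nad, cox and ccb genes, matR and orfX, and no others. Of these 16 genes, 9 rose and none fell (median 0.87). They were singled out after their values had been seen. nad6, a subunit of respiratory complex I, read 9.26 and 8.93 in dry KD seeds and 5.31 and 5.25 at 16DAF (3.81, SE 0.258, adjusted p = 2.36e-06). cox2, a subunit of cytochrome oxidase, read 9.31 and 9.41 in dry KD seeds and 6.59 and 6.14 at 16DAF (3, SE 0.175, adjusted p = 9.75e-07). nad9 rose by 2.18 (SE 0.248) and cox1 by 1.39 (SE 0.269). nad4, also of complex I, measured 0.19 (adjusted p = 0.466), and ccb382, a cytochrome c biogenesis gene, measured -0.82 (adjusted p = 0.0572). Of the 9, only matR was lost when 1 array was left out, whichever it was (0.76 to 1.2, adjusted p = 0.0572 to 0.207).

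**Figure D4:**
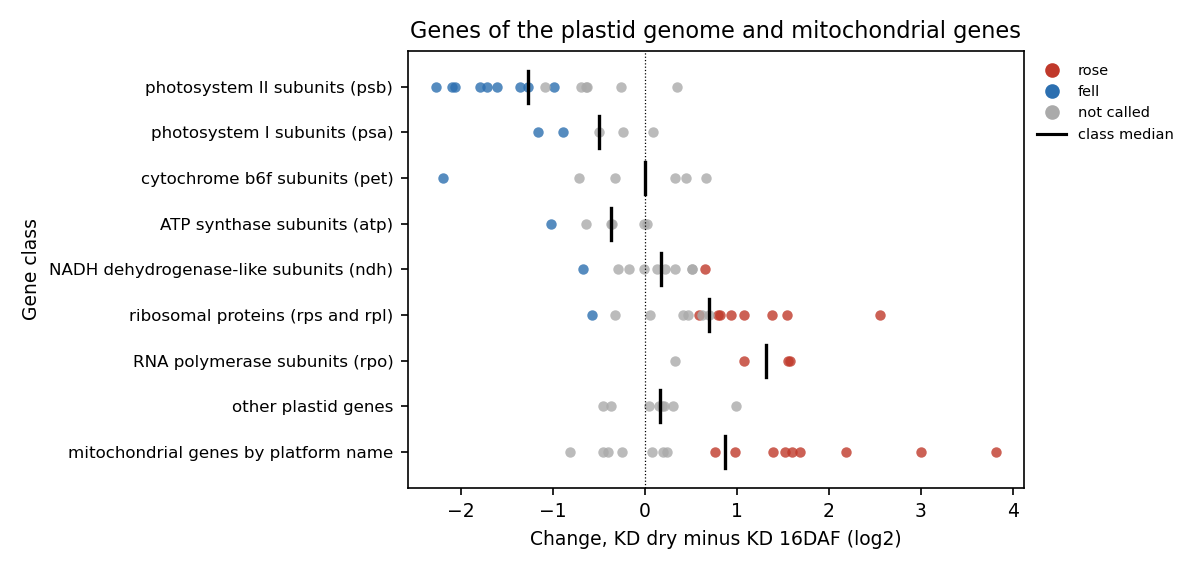
Change of 69 plastid genes, by class, and of 16 mitochondrial genes (log2, KD dry minus KD 16DAF), coloured by call, with bars at the class medians. Photosystem II subunits spread to the left with a median of -1.27, and RNA polymerase subunits lie to the right with a median of 1.32.

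In amino acid catabolism 6 of 14 measured genes rose and 3 fell (median 0.16), where 19.6% of all probe sets rose and 15.3% fell. Some of these increases were lost without dry KD replicate 1 or 2 or without KD 16DAF replicate 1, with list medians of 0.05 to 0.27. Both subunits of methylcrotonyl-CoA carboxylase, an enzyme of leucine breakdown, rose: MCCB read 10.03 and 9.69 in dry KD seeds and 6.48 and 6.64 at 16DAF (3.3, SE 0.275, adjusted p = 8.82e-06), and MCCA rose by 1.91 (SE 0.166). Isovaleryl-CoA dehydrogenase (IVD), a step before it, rose by 2.21 (SE 0.258). AT5G09300, in the same list, read 4.47 and 4.94 in dry KD seeds and 8.35 and 8.73 at 16DAF (-3.83, SE 0.242), and the methionine gamma-lyase gene MGL fell by 1.6 (SE 0.185). AT4G33150 measured -0.38 (SE 0.267, adjusted p = 0.331). In the aspartate family 1 of 3 rose, the cystathionine beta-lyase gene CBL (0.72, SE 0.136). Of 11 TCA cycle genes 2 rose, a share close to the 19.6% over all probe sets. They were IDH-V (1.1, SE 0.191) and SDH2-2, an iron-sulphur subunit of succinate dehydrogenase (0.98, adjusted p = 0.0422). SDH2-2 was lost without dry KD replicate 1 or either KD 16DAF array (0.62 to 1.02, adjusted p = 0.109 to 0.286). Pyruvate decarboxylase 2 (PDC2), of ethanol fermentation, rose by 1.29 (SE 0.131). It was 1 of 3 that rose among 7 genes in its list. NDB2 and AT4G17260 were lost without KD 16DAF replicate 1 (0.67 and 0.48), and AT4G17260 also without dry KD replicate 2 (0.73).

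All 4 measured genes of the antioxidant list, out of 37 listed, fell, though by small amounts, from -1.2 to -0.44. The thylakoid ascorbate peroxidase gene TAPX read 4.26 and 4.8 in dry KD seeds and 5.76 and 5.7 at 16DAF (-1.2, SE 0.249), and the plastid glutathione reductase gene GR fell by 1.15 (SE 0.165). SAPX was lost without dry KD replicate 2 (-0.53) or KD 16DAF replicate 2 (-0.54). GR1 was lost when any 1 of the 4 KD arrays was left out (-0.5 to -0.36), and with the arrays centred (-0.25). Of 14 glutathione transferases 2 rose and 2 fell, led by GSTL3 (-2.08, SE 0.259). Neither share was above the 19.6% that rose and the 15.3% that fell over all probe sets. The increases, GSTU28 (0.93) and GSTU16 (0.9), were both lost without dry KD replicate 1 (0.92 and 0.84). GSTU16 was also lost without KD 16DAF replicate 1 (0.87). Autophagy genes rose in 5 of 11 cases and fell in 1 (median 0.66). Of the increases, ATG8E (1.18) was lost without either dry KD array or without KD 16DAF replicate 1 (0.77 to 1.32). ATG8H, an anchor of the autophagosome membrane, read 11.13 and 11.05 in dry KD seeds and 9.02 and 9.55 at 16DAF (1.81, SE 0.251, adjusted p = 0.000266), ATG8F rose by 1.08 (SE 0.158), and ATG8D fell by 1.03 (SE 0.165). Ubiquitin conjugating enzymes rose in 4 of 13 cases and fell in 1, with UBC28 at 1.03 (SE 0.165), and without single arrays the increases numbered 1 (without KD 16DAF replicate 1) or 2 (without any other), and the decrease was lost without any 1 of the 4. Of the H2B histone genes, HTB4 fell by 1.07 (SE 0.185) and HTB1 by 0.8 (SE 0.153).

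The genes with the largest changes lay mostly outside these lists, and many carry only a locus code in the gene table. AT2G34740 read 12.05 and 12.01 in dry KD seeds and 5.15 and 7.17 at 16DAF (5.87, SE 0.614, adjusted p = 3.88e-05). AT5G17540 read 9.11 and 9.29 in dry KD seeds and 3.72 and 3.45 at 16DAF (5.62, SE 0.158, adjusted p = 4e-08). NPF3.1 (AT1G68570), of the nitrate and peptide transporter family, rose by 5.49 (SE 0.484). The plant defensin gene LCR67, also called PDF1.1, read 13.02 and 14.01 in dry KD seeds and 6.09 and 10.24 at 16DAF (5.35, SE 1.55, adjusted p = 0.0213). Its 16DAF arrays were the farthest apart of these genes, and the call was lost without dry KD replicate 1 (5.84, adjusted p = 0.0609), dry KD replicate 2 (4.86, adjusted p = 0.11) or KD 16DAF replicate 1 (3.28, adjusted p = 0.187). AT5G24490 (5.22, SE 0.335) and AT4G27450 (4.96, SE 0.447) also rose by about 5.

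At the other end, AT2G34700 read 4.44 and 4.98 in dry KD seeds and 12.55 and 12.38 at 16DAF, 216-fold lower in dry seeds (-7.75, SE 0.341, adjusted p = 2.28e-07). AT1G62500 fell by 7.61 (SE 0.455), AT5G55620 by 7.36 (SE 0.394) and AT3G62730 by 7.15 (SE 0.274), each to between 3.21 and 5.76 in dry KD seeds. OCT1, an organic cation and carnitine transporter gene, read 4.87 and 4.91 in dry KD seeds and 11.06 and 11.12 at 16DAF (-6.2, SE 0.365). Dry levels of this kind lie near the array medians of 4.92 and 4.91. No detection calls came with the values, which makes such sizes uncertain. Decreases that ended above that median included the peroxidase gene PRXR1, at 7.34 and 8.3 in dry KD seeds and 12.94 and 13.09 at 16DAF (-5.2, SE 0.268). MSRB6, a methionine sulfoxide reductase, read 5.59 and 6.98 in dry KD seeds and 11.21 and 11.59 at 16DAF (-5.11, SE 0.385). AOP3, of glucosinolate side chain synthesis, fell by 5.82 (SE 0.183). In total 1373 of the probe sets that fell ended below the median of the dry arrays, and 1043 of those that rose began below the median of the 16DAF arrays.

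The brightest named transcripts of dry KD seeds were mostly bright at 16DAF as well. AT1G04560 read 14.47 and 14.57 in dry KD seeds and 14.11 and 14.36 at 16DAF (0.29, adjusted p = 0.215). Of the 10 brightest named genes in dry KD seeds, 6 rose, where 19.6% of all probe sets rose. The 10 were picked by their dry level, which favours increases, so this count only describes them. M10 was the only 1 of the 10 that changed by more than 1.2. Of those 6, AT3G15670, AT3G53040 and AT3G05260 were lost when single arrays were left out. Transcripts held within 0.5 in either direction by their 95% confidence interval numbered 3747 among named probe sets. The brightest of these were PAP85 (0.14, interval -0.19 to 0.46), AT1G14950 and AT5G45690, the last at 13.18 and 13.31 in both groups.

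WT seeds gave a test of which changes differed in KD. The WT comparison, dry minus 16DAF, used other arrays, and 4633 probe sets (20.4%) rose and 3843 (16.9%) fell there. Of the 290 named probe sets that rose by 2 or more in WT, 289 lay above 0 in KD, with a median of 2.36, and the exception was AT1G68670. Of the 430 that fell by 2 or more in WT, none lay above 0 in KD, and the median was -2.55. The difference itself, KD change minus WT change, passed for 313 probe sets (1.38%), of which 174 (0.765%) were positive and 139 (0.611%) negative. This count rested on single arrays: it was 86 and 72 without dry KD replicate 1 and 2, 99 and 106 without KD 16DAF replicate 1 and 2, and 98 and 110 without dry WT replicate 1 and 2. Without WT 16DAF replicate 1 and 2 it was 272 and 425.

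PDF1.4, a plant defensin gene, had the largest positive difference among named genes. It read 9.31 and 9.25 in dry KD seeds and 4.81 and 4.48 in KD seeds at 16DAF, 24.85-fold higher in dry seeds (4.63, SE 0.234). In WT it read 6.24 and 5.53 in dry seeds and 4.26 and 4.53 at 16DAF, so it rose in both genotypes, by 3.14 more in KD (SE 0.33, adjusted p = 0.00383). AT1G22890 read 5.4 and 5.63 in dry KD seeds, against 2.78 and 3 in KD at 16DAF, and 3.15 and 2.89 in dry WT seeds, against 2.77 and 2.77 in WT at 16DAF (difference 2.38, SE 0.211). AT3G09440 rose by 1.39 in KD and fell by 0.98 in WT (difference 2.37, SE 0.309, adjusted p = 0.00828). In 4 genes with a positive difference the KD change was not called and the WT change was a fall. EXGT-A3, a xyloglucan endotransglucosylase, read 8.85 and 8.77 in dry KD seeds and 8.76 and 8.88 in KD at 16DAF, against 6.81 and 6.49 in dry WT seeds and 8.47 and 9.07 in WT at 16DAF. The others were XTH16 (difference 2.42), BGLU46 (2) and Hsp70-2 (1.32).

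The largest negative difference was that of AT1G71691. It read 4.94 and 5.23 in dry KD seeds and 9.92 and 10.5 in KD at 16DAF, against 4.84 and 5.45 in dry WT seeds and 6.75 and 6.04 in WT at 16DAF. The dry levels of the genotypes overlapped, while at 16DAF both KD arrays lay above both WT arrays (difference -3.88, SE 0.46, adjusted p = 0.00523). AT5G15950 read 5.15 and 5.99 in dry KD seeds and 9.59 and 9.91 in KD at 16DAF, against 6.63 and 6.9 in dry WT seeds and 7.75 and 7.42 in WT at 16DAF (difference -3.36, SE 0.364). Its KD arrays lay below the WT arrays in dry seeds and above them at 16DAF. AT1G68670 read 8.48 and 8.52 in dry KD seeds and 8.99 and 8.43 in KD at 16DAF, against 8.65 and 8.08 in dry WT seeds and 5.68 and 5.8 in WT at 16DAF, so the genotypes overlapped in dry seeds and not at 16DAF. The Aurora kinase gene AUR2, of cell division, fell by 1.08 in KD and rose by 1.46 in WT (difference -2.54, SE 0.303). These 4, PDF1.4, AT1G22890, AT3G09440 and EXGT-A3 passed with any 1 of 8 arrays left out.

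**Figure D5:**
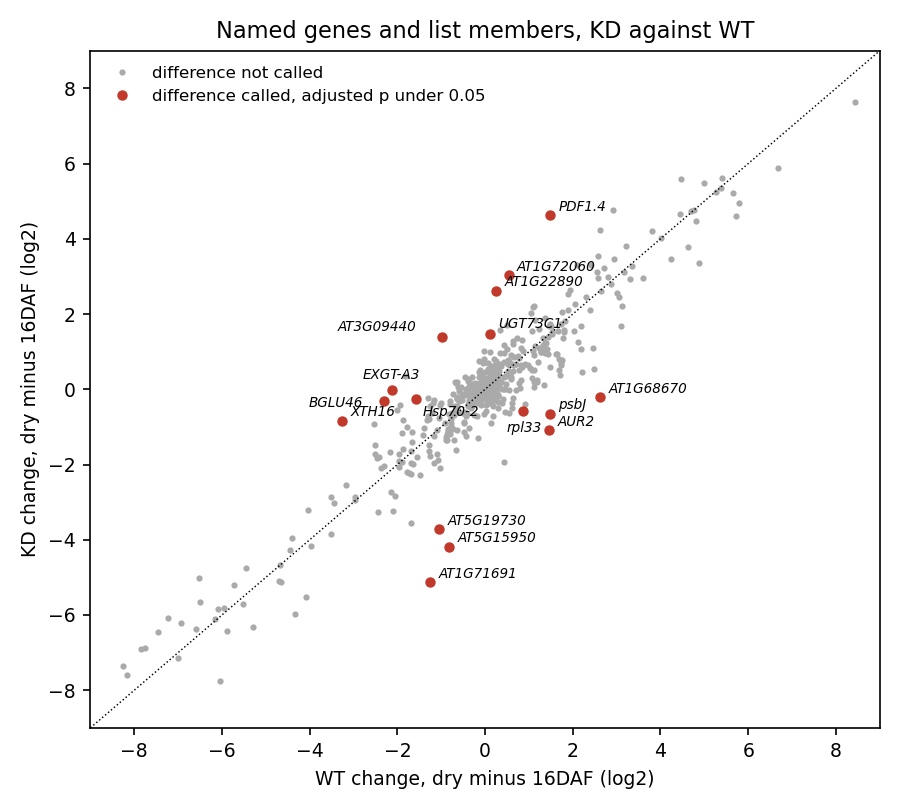
KD change (vertical) against WT change (horizontal), both dry minus 16DAF in log2, for 581 named genes and gene list members; the 16 whose difference passed an adjusted p of 0.05 are red and labelled, and the dotted line marks equal change. Most points lie along the line, with PDF1.4 above it and AT1G71691, AT5G15950 and AT5G19730 below it.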

How the data were processed

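Total RNA of excised seeds was treated with DNase, amplified in 2 cycles and hybridised to 12 arrays, per the labels' protocols. The deposited values, in log2 units, come from RMA, and Partek is the other tool listed, per the submitters' processing notes. No versions were stated. RMA aligns the arrays, so a shift of all transcripts in 1 direction would be hidden. They were taken as they stood for all arrays. Having 2 arrays a group limits precision.

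Of 22810 probe sets, 64 controls were removed. The platform annotation named 1 gene for 13513 probe sets (59.4%), several for 503 and none for 8730; 13436 matched the TAIR10.1 gene table and took its symbols. limma 3.58.1 in R 4.3.3 was fitted to 6 group means over 12 arrays (eBayes, no trend, with 6 residual degrees of freedom and 4.16 prior ones), two-sided, with Benjamini-Hochberg adjustment over 22746 probe sets and a threshold of 0.05. The spread therefore comes from all 6 groups. SE is that of this model. The fit was tested on simulated data. Tables were made with pandas 2.3.3 under Python 3.11.15 and plots with matplotlib 3.10.9.

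The comparison, its 60 lists of genes and the naming rule were chosen with earlier results of these data known, so no list is independent support. Lists were written by locus or symbol pattern; 37 had at least 3 measured members. Where a gene had several probe sets, the brightest was taken. Named genes came from probe sets that name 1 gene, for changes those called and without overlap of the arrays: the 15 largest changes in each direction, the 10 largest that began or ended above the array median, up to 4 per list, the 5 largest KD minus WT differences in each direction, the 10 brightest in dry KD seeds and the 5 brightest steady genes, of which the text gives part. Promoter motifs and protein composition were not analysed here. Alternatives covered the scaling, the arrays that share the spread, the variance model, a filter on dim probe sets, the replicate number as a block, the conflicting labels, each array left out and a smallest change of 1 (treat).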

Additional observations from a re-analysis of the deposited data

Results flagged for a closer look

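For 16 genes among those named or listed, the change on drying differed between KD and WT seeds by the test of the difference itself (limma, adjusted p under 0.05). Of these, 10 were chosen for having the largest such differences. The KD change exceeded the WT change by 3.14 in PDF1.4, 2.5 in AT1G72060, 2.42 in XTH16, 2.38 in AT1G22890, 2.37 in AT3G09440, 2.11 in EXGT-A3, 2 in BGLU46, 1.36 in UGT73C1 and 1.32 in Hsp70-2. The KD change was below the WT change in rpl33 (-1.44), psbJ (-2.13), AUR2 (-2.54), AT5G19730 (-2.68), AT1G68670 (-2.84), AT5G15950 (-3.36) and AT1G71691 (-3.88). When each of 8 arrays was left out in turn, 8 of these genes passed every time. AT5G19730 passed 6 times, UGT73C1 5, XTH16 and BGLU46 3, Hsp70-2 and psbJ 2, and AT1G72060 and rpl33 1.

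AT1G72060 read 6.73 and 7.5 in dry KD seeds and 3.55 and 4.6 in KD seeds at 16DAF, against 4.17 and 4.16 in dry WT seeds and 3.58 and 3.67 in WT seeds at 16DAF. AT5G19730 read 3.66 and 3.92 in dry KD seeds and 7.32 and 7.7 in KD seeds at 16DAF, against 3.63 and 4.37 in dry WT seeds and 5.06 and 5.02 in WT seeds at 16DAF. UGT73C1 rose by 1.47 in KD and measured 0.11 in WT.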

How the results depend on the processing

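The 7944 calls in KD were 5835 to 6538 with 1 KD array left out, 6503 without the 2 arrays of conflicting source names, and 1764 when tested against a smallest change of 1, where 42.8% were increases. Centring made 70% of the calls increases, against 56.1%. In WT, 8476 calls became 1946 against a smallest change of 1. The 313 differences between KD and WT were 176 with the spread from the compared arrays alone, 69 without the 2 conflicting arrays, 72 to 425 with 1 array left out and 0 in limma's treat against a smallest change of 1, where 195 passed an unadjusted p of 0.05. Whether the replicate numbers pair the samples was not settled. Deviations of the dry and 16DAF KD arrays correlated at 0.053. Over 15 pairs of groups the correlations ran from -0.33 to 0.417, and 3 exceeded 0.1. The highest was that of KD and WT seeds at 16DAF, and KD and WT dry seeds gave 0.17. With the replicate block, 7472 KD calls and 164 differences passed. Of 191 named or organelle genes called in KD, 155 were called in every alternative that held them, other than the smallest change of 1, and 0 reversed. Dim genes were absent from the fit with a filter on dim probe sets, so they were not tested there. Tests against a smallest change ask more by construction, and leaving out arrays gives fewer samples. The other causes were not tested.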

Other observations

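Smaller lists held single genes that changed. ATL8, a RING-type ubiquitin ligase gene, read 4.08 and 4.29 in dry KD seeds and 7.12 and 6.91 in KD seeds at 16DAF (-2.83, SE 0.315, adjusted p = 5.87e-05). PUB19, a U-box ubiquitin ligase gene, rose by 1.23 (SE 0.219). The peroxidase gene PRX52 read 3.82 and 4.76 in dry KD seeds and 6.4 and 6.65 in KD seeds at 16DAF (-2.24, SE 0.47). Of 7 bHLH factors 2 rose and 2 fell, where 19.6% of all probe sets rose and 15.3% fell. bHLH104 and bHLH121 rose by 1.68 (SE 0.325) and 1.21 (SE 0.142), while ILR3 (-0.69, adjusted p = 0.0165) and bHLH115 (-0.53, adjusted p = 0.0386) fell. All 4 are known from iron responses. bHLH115 was lost without any 1 of the KD arrays (-0.55 to -0.52, adjusted p = 0.116 to 0.139). ILR3 was lost without each KD array (-0.72 to -0.52, adjusted p = 0.0553 to 0.134) other than dry KD replicate 2. bHLH104 read 9.22 and 8.98 in dry KD seeds and 7.29 and 7.55 in KD seeds at 16DAF.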
